A study of Homo sapiens with 6 samples.

Results

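The 8 genes of folate metabolism described here act in the pathway blocked by methotrexate, and their RNA was measured by RNA-seq in MOLT-4, an established human line of T-cell acute lymphoblastic leukemia (T-ALL). The 8 genes, SLC19A1, FPGS, GGH, TYMS, SHMT1, MTHFD1, MTHFD2 and ATIC, were taken by symbol from tables of 60640 gene identifiers, and each symbol matched 1 identifier. The labels put 3 libraries in the wild type group, the control for the CRISPR knockout, and 3 were labelled IK-KO, in which CRISPR-Cas was directed at IKZF1, the gene of IKAROS. Both groups were MOLT-4 grown in RPMI1640 medium with fetal bovine serum, and no label gives a drug, so nothing here measures a response to methotrexate. Edited cells and control were bought, and the labels name no clone, so the edit cannot be told apart from anything else in which the purchased lines differ. The labels do not say whether replicates were separate cultures, and the p-values then measure only the spread between these libraries. The comparison asks which folate genes had a different RNA level in the edited line.

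Folates carry single carbon units between amino acids, nucleotides and the methyl groups of the cell. In the cytosol these units are used to make thymidylate and purines, and in mitochondria serine and glycine are broken down to supply them. Methotrexate is a folate analog used in leukemia of lymphoid cells. It enters through the reduced folate carrier, is held in the cell as polyglutamates, and in that form inhibits thymidylate synthase and the purine enzyme ATIC.

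Levels are given as FPKM, fragments per kilobase of transcript and per 1000000 mapped fragments, a unit scaled for transcript length in which genes can be set beside each other. Between 21254 and 21887 rows per library had a value above 0, and mitochondrial transcripts took 13.0% to 14.4% of the summed FPKM. The number of fragments behind a value was not used here, and the precision is instead shown by the confidence bounds that the authors deposited with each FPKM. All 6 libraries carried T-cell markers, with a summed level over 10 markers of 4658 to 4908 FPKM in wild type and 5646 to 6112 FPKM in IK-KO. In IK-KO 5 of these 10 markers were called higher (CD247, CD3G, CD3D, ZAP70 and TRBC2) and 2 lower (CD7 and CD5). Over all tested genes 10.1% were called higher and 9.75% lower. The part of the marker differences in the results below was not tested. The CD3D call was lost without wild type replicate 1 or 2 or IK-KO replicate 2 or 3. Markers of other cell types were low. Sums over 6 genes were at most 3.62 FPKM for B cells, 0.891 FPKM for myeloid cells and 2.12 FPKM for stromal and epithelial cells. Of the stromal and epithelial genes COL1A2 and EPCAM were listed at 0 in all 6 libraries. KRT8 made up most of their sum, at 1.33 ± 0.634 FPKM in wild type and 1.47 ± 0.335 FPKM in IK-KO (SD, n = 3 each, limma adjusted p = 0.794). The targeted gene, IKZF1, had a level of 134, 124 and 105 FPKM among the controls but 207, 260 and 207 FPKM under the IK-KO label, a difference of 0.89 on the log2 scale (SE 0.12, limma adjusted p = 0.00295). Its RNA was thus higher in the libraries labelled IK-KO, and an RNA level does not show whether the protein was lost. The study's methods state that the knockout was checked by PCR and western blot, which were not analysed here.

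The start regions of 3 members are printed because they belong to the member that rose, the member with the highest level and the member with the lowest level. Each is the 250 bases before the start given by RefSeq on GRCh38.p14, read in the direction of the gene. MTHFD2 is at chr2:74198365-74198614 (plus strand), TYMS at chr18:657403-657652 (plus strand) and SHMT1 at chr17:18363551-18363800 (minus strand). Capitals mark CCAAT or its complement ATTGG in MTHFD2 and SHMT1, and in TYMS they mark GGGAA or TTCCC, the core letters bound by IKAROS, and GCGGGAAA, the complement of the E2F letters TTTCCCGC, which itself contains GGGAA.
MTHFD2: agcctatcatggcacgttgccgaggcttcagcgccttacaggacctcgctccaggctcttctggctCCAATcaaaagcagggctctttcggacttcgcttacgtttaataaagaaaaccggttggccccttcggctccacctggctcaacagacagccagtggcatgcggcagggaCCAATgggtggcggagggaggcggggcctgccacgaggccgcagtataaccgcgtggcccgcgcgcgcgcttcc
TYMS: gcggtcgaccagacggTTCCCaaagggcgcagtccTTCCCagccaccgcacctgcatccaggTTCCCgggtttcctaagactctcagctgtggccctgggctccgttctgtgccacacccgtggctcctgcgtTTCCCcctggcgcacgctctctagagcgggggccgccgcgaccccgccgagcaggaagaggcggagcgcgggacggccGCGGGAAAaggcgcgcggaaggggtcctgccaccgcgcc
SHMT1: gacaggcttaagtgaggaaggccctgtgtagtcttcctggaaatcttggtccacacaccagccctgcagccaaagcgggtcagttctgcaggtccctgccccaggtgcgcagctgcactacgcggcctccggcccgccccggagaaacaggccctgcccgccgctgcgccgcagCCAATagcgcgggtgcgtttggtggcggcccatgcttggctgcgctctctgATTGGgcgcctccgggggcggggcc

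These windows held different letters. The MTHFD2 window had CCAAT at -184 and -74, counted from -1 at the base before the start, and none of the other patterns searched on both strands. Those patterns were TTTCCCGC for E2F, the core GGGAA for IKAROS, the E-box letters CACGTG and the C/EBP-ATF letters TGATGNAA. In the TYMS window TTTCCCGC matched at -39, and GGGAA matched at -234, -215, -188, -117 and -37. The SHMT1 window had CCAAT at -76 and -25 and no GGGAA. Of the members not printed, ATIC had the E-box letters at -46, and MTHFD1 had them at -15. These 2 genes also had 1 GGGAA each, at -120 in ATIC and at -174 in MTHFD1, and MTHFD1 had a CCAAT at -216. FPGS and SLC19A1 have 3 and 4 listed starts, and among these a single SLC19A1 window matched GGGAA, at -108 inside a TTTCCCGC at -109. The FPGS windows had CCAAT at -36 in the first and at -60 and -23 in the second, and the E-box letters at -76 in the third. Members were found in the table of start regions for 7 of 8 genes, GGH being the other. Over the 35116 windows of this length in the table, 59.0% held GGGAA, 32% CCAAT, 6.34% the E-box letters, 3.14% TGATGNAA and 1.39% TTTCCCGC. A match describes letters in a window and says nothing of binding.

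Of the 8 members, MTHFD2 was higher and FPGS lower in IK-KO, and the other 6 did not pass the test. Called here means a limma adjusted p under 0.05 on log2(FPKM + 1) over 12652 genes with a mean of at least 1 FPKM, a filter that all 8 members passed. That made 2 of 8 members called, beside 19.9% of all tested genes. Higher calls were 1 of 8 beside 10.1% of all tested genes, and lower calls were 1 of 8 beside 9.75%. For 5 members the 3 IK-KO values lay wholly above or below the 3 wild type values, beside 39% of all tested genes. The median difference over the members was -0.04 on the log2 scale, beside 0.02 over all tested genes. By calls and by median the members as a list stood near the background, and the results concern single genes. The share of members without overlap was above that of all tested genes, a difference that was not tested.

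**Figure D1:**
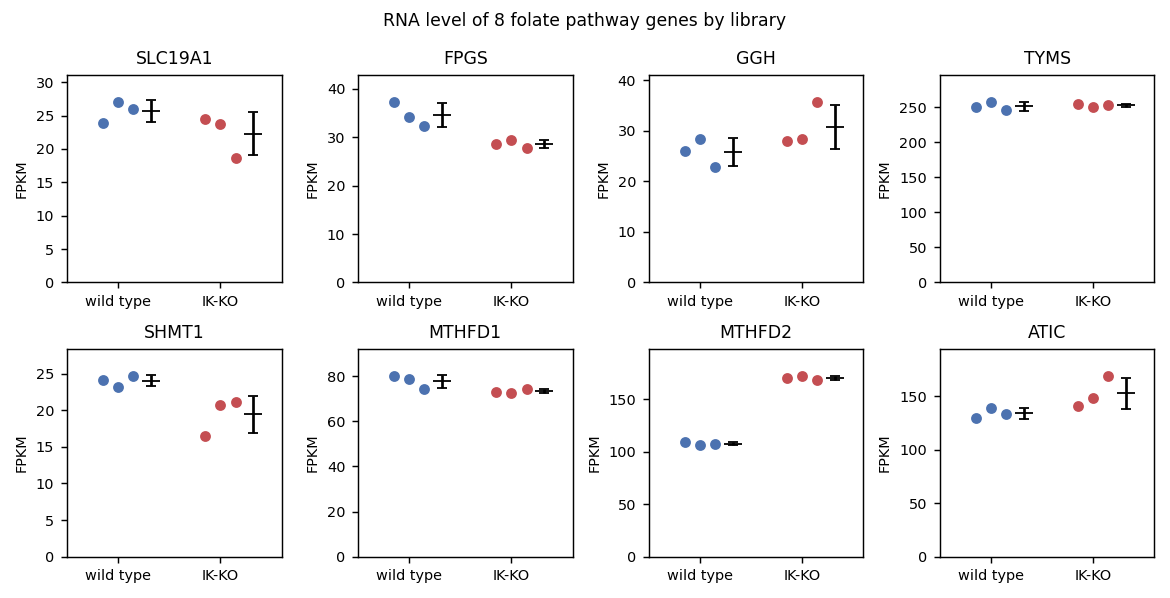
Level of each of the 8 members in FPKM (linear axis from 0) in the 3 wild type (blue) and 3 IK-KO (red) libraries, in replicate order, with the mean and SD of each group beside the points. The MTHFD2 points separate widely, from at most 109 FPKM in wild type to at least 169 FPKM in IK-KO, while the TYMS points lie between 246 and 258 FPKM in all 6 libraries.

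In order of level, averaged over the 6 libraries, the members ran from TYMS through ATIC, MTHFD2, MTHFD1, FPGS, GGH and SLC19A1 to SHMT1. All were well expressed for this line, since the highest, TYMS, stood at the 97.4th percentile of tested genes and the lowest, SHMT1, at the 67.4th. ATIC lay above MTHFD2 in each wild type library. In IK-KO MTHFD2 lay above ATIC in replicates 1 and 2, and the pair was at 169 FPKM each in replicate 3. The wild type ranges of GGH, SLC19A1 and SHMT1 overlapped, so their order is within the spread, whereas FPGS stood above all of them. In IK-KO the FPGS values of 27.7 to 29.5 FPKM fell among those of GGH, and SLC19A1 and SHMT1 still overlapped.

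SLC19A1 is the reduced folate carrier, the main route by which folates and methotrexate enter lymphoid cells. The gene (ENSG00000173638.19, chromosome 21, 45493572 to 45573365, minus strand) was at 23.9, 27.1 and 26.0 FPKM in wild type, against 24.5, 23.8 and 18.6 FPKM in IK-KO. The groups overlapped, and the low mean of IK-KO came from replicate 3. Means were 25.6 ± 1.62 FPKM (SD, n = 3) and 22.3 ± 3.26 FPKM (SD, n = 3), a log2 difference of -0.20 (SE 0.11, 95% interval -0.47 to 0.06, limma adjusted p = 0.262). The other routes of entry were nearly silent. FOLR1 and FOLR2, folate receptors, were listed at 0 in all 6 libraries, FOLR3 did not exceed 0.267 FPKM, and SLC46A1, the proton-coupled folate transporter, did not exceed 0.119 FPKM.

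FPGS is folylpolyglutamate synthase, which adds the glutamates that keep folates and methotrexate in the cell. Its values (ENSG00000136877.15, chromosome 9, 127794597 to 127814327, plus strand) were 37.3, 34.2 and 32.4 FPKM in wild type and 28.6, 29.5 and 27.7 FPKM in IK-KO. Every IK-KO library was below every wild type library, with means of 34.7 ± 2.50 FPKM and 28.6 ± 0.895 FPKM (SD, n = 3 each). The difference was -0.27 on the log2 scale (SE 0.07, 95% interval -0.43 to -0.10, limma adjusted p = 0.0355), a ratio of 0.825. This call was lost when wild type replicate 1 or 2, or any 1 of the 3 IK-KO replicates, was left out (adjusted p between 0.0710 and 0.103).

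The genes around FPGS on chromosome 9 were also lower in IK-KO. Among the 50 tested genes nearest to it, 25 on each side over 4.07 Mb, 46 had a difference below 0. At the limma adjusted p under 0.05, 25 were called lower and 0 higher, beside 9.75% and 10.1% of all tested genes. The neighbours had a median difference of -0.37 on the log2 scale, with quartiles of -0.52 and -0.26, and 37 of the 50 lay lower than FPGS. Of the nearest tested genes, ST6GALNAC6, a sialyltransferase gene, fell from 6.09 ± 0.465 to 3.48 ± 0.897 FPKM (SD, n = 3 each, difference -0.68, SE 0.16, limma adjusted p = 0.0239). CDK9, the gene of a kinase of transcription elongation on the other side, was at 26.7 ± 1.87 and 23.6 ± 4.40 FPKM (difference -0.18, SE 0.13, limma adjusted p = 0.375). With the neighbour median taken away, the FPGS difference was 0.10. Around the other 7 members the neighbour median lay between -0.09 at MTHFD2 and 0.06 at ATIC. Elsewhere on chromosome 9 the neighbour median was also negative, at -0.29 around VLDLR and GLDC, -0.38 around PSAT1 and -0.33 around SARDH. Why these genes were lower, and the part of this in the FPGS value, was not tested.

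**Figure D2:**
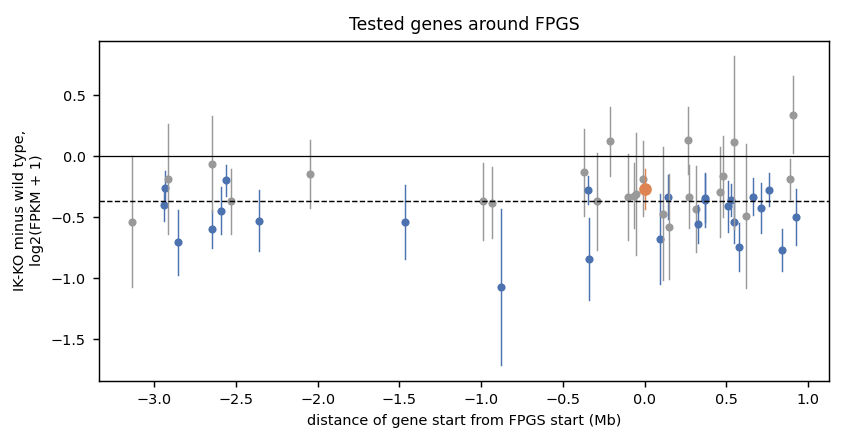
Difference IK-KO minus wild type in log2(FPKM + 1), with 95% intervals, for FPGS (orange) and the 50 nearest tested genes, against the distance of each gene start from that of FPGS in megabases. Blue genes were called lower and grey ones were not called. The dashed line is the neighbour median of -0.37, and FPGS at -0.27 lies above it.

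GGH is gamma-glutamyl hydrolase, which removes those glutamates again. It was measured at 25.9, 28.4 and 22.8 FPKM in wild type, against 28.0, 28.4 and 35.7 FPKM in IK-KO (ENSG00000137563.12, chromosome 8, 63015079 to 63038806, minus strand). The groups overlapped, and of the IK-KO libraries replicate 3 stood furthest above the wild type values. Means were 25.7 ± 2.78 and 30.7 ± 4.34 FPKM (SD, n = 3 each), a log2 difference of 0.24 (SE 0.12, 95% interval -0.03 to 0.52, limma adjusted p = 0.197). The ratio of GGH to FPGS was 0.695, 0.829 and 0.705 in wild type and 0.979, 0.964 and 1.29 in IK-KO. In wild type FPGS therefore exceeded GGH in each library, and in IK-KO the levels were about equal in 2 libraries and GGH was higher in replicate 3. No test was run on the ratios, which share the FPGS values described above.

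TYMS is thymidylate synthase, which makes thymidylate for DNA and is a target of antifolates. It had the highest level of the members, with 250.1, 258 and 246 FPKM in wild type and 254, 251 and 254 FPKM in IK-KO (ENSG00000176890.16, chromosome 18, 657653 to 673578, plus strand). The groups overlapped fully. Means were 251 ± 6.23 and 253 ± 1.83 FPKM (SD, n = 3 each), and the 95% interval of the log2 difference, -0.08 to 0.10 around 0.01 (SE 0.04, limma adjusted p = 0.896), was the narrowest of the 8 members. Its sign was negative under other scalings of the libraries, with -0.00783 under median ratio scaling and -0.0702 under quantile normalization, neither called. ENOSF1 runs on the opposite strand and shares 3261 bases with TYMS, and TYMSOS shares 688. The strand setting of the counting was not stated, so fragments of such pairs cannot be told apart. ENOSF1 was at 20.5 to 23.7 FPKM in wild type and 20.7 to 28.4 FPKM in IK-KO (difference 0.15, limma adjusted p = 0.417), far below TYMS, and TYMSOS did not exceed 3.16 FPKM (difference 0.39, limma adjusted p = 0.236).

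Thymidylate can also be made by salvage or from deoxycytidylate. TK1, the cytosolic thymidine kinase of the salvage route, differed by -0.04 (SE 0.06, limma adjusted p = 0.685). TK2, the mitochondrial thymidine kinase, rose from 3.45 ± 0.0931 to 5.28 ± 0.429 FPKM (difference 0.49, limma adjusted p = 0.0161), and DCTD, deoxycytidylate deaminase, fell from 60.7 ± 7.15 to 47.7 ± 2.53 FPKM (difference -0.34, limma adjusted p = 0.0405). The call of TK2 was lost without wild type replicate 2 or IK-KO replicate 2 or 3 (adjusted p up to 0.0609), and that of DCTD without any 1 library but wild type replicate 3 (adjusted p up to 0.123).

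SHMT1 is the cytosolic serine hydroxymethyltransferase, which moves a carbon unit from serine to tetrahydrofolate. It was at 24.1, 23.2 and 24.7 FPKM in wild type, against 16.5, 20.7 and 21.1 FPKM in IK-KO (ENSG00000176974.20, chromosome 17, 18327860 to 18363563, minus strand). Each IK-KO value lay below each wild type value, with IK-KO replicate 1 the lowest. Means were 24.0 ± 0.750 and 19.5 ± 2.55 FPKM (SD, n = 3 each), and the log2 difference of -0.30 (SE 0.10, 95% interval -0.53 to -0.06) had an unadjusted limma p of 0.0203 and an adjusted p of 0.0811. The gene was not called under any of 16 alternative settings (adjusted p between 0.0664 and 0.186).

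MTHFD1 is the cytosolic enzyme with 3 activities that passes the carbon unit between its oxidation states. Its level was 80.1, 78.6 and 74.4 FPKM in wild type and 73.1, 72.6 and 74.2 FPKM in IK-KO (ENSG00000100714.17, chromosome 14, 64388031 to 64463457, plus strand). The groups met almost edge to edge, between IK-KO replicate 3 and wild type replicate 3. Means were 77.7 ± 2.94 and 73.3 ± 0.812 FPKM (SD, n = 3 each), a log2 difference of -0.08 (SE 0.05, 95% interval -0.20 to 0.03, limma adjusted p = 0.289).

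MTHFD2 is the mitochondrial methylenetetrahydrofolate dehydrogenase and cyclohydrolase, an enzyme known for high levels in embryonic and tumour cells. It was at 109, 107 and 107 FPKM in wild type, against 171, 172 and 169 FPKM in IK-KO (ENSG00000065911.12, chromosome 2, 74198610 to 74217565, plus strand). The replicates of each group lay close together and the groups far apart. The mean rose from 108 ± 1.45 to 171 ± 1.77 FPKM (SD, n = 3 each), a 1.58-fold rise and a log2 difference of 0.66 (SE 0.04, 95% interval 0.56 to 0.75, limma adjusted p = 0.000118). Under all 16 alternative settings it was called, with a difference between 0.61 and 0.67 and an adjusted p between 5.50e-05 and 0.00371. It was also the 1 member whose deposited confidence bounds did not overlap between groups, with a highest upper bound of 114 FPKM in wild type and a lowest lower bound of 162 FPKM in IK-KO. The rows overlapping MTHFD2, SLC4A5 and AC006030.1, did not exceed 0.778 FPKM.

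The mitochondrial partners of MTHFD2 were split. SHMT2, the mitochondrial serine hydroxymethyltransferase that supplies its substrate, was at 78.9, 90.3 and 87.1 FPKM in wild type, against 120.5, 131 and 119.8 FPKM in IK-KO. All 3 IK-KO libraries were above the wild type range, with a log2 difference of 0.53 (SE 0.07, limma adjusted p = 0.00223). MTHFD1L, which releases formate in the next step, gave 0.18 (SE 0.08, 95% interval -0.00482 to 0.37, limma adjusted p = 0.159), and MTHFD2L, the paralog of MTHFD2, gave 0.15 (SE 0.13, limma adjusted p = 0.451). The tested genes around MTHFD1L on chromosome 6 had a median difference of 0.17. The glycine cleavage genes GCSH (0.47, SE 0.09, limma adjusted p = 0.0103) and GLDC (1.17, SE 0.25, limma adjusted p = 0.0182) were higher. AMT (-0.27, limma adjusted p = 0.373) and DLD (-0.03, limma adjusted p = 0.886), of the same system, were not called. GLDC was low, at 2.68 ± 1.25 and 7.04 ± 1.25 FPKM (SD, n = 3 each), and lost its call without wild type replicate 3 or without IK-KO replicate 1 or 3 (adjusted p between 0.0534 and 0.0662). ALDH1L2, which oxidises formyltetrahydrofolate in mitochondria, did not exceed 0.867 FPKM.

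Ratios within a library set the mitochondrial enzyme against its cytosolic counterpart. MTHFD2 over MTHFD1 was 1.37, 1.36 and 1.44 in wild type and 2.33, 2.37 and 2.27 in IK-KO, or 1.39 ± 0.0476 and 2.33 ± 0.0495 (SD, n = 3 each). SHMT2 over SHMT1 was 3.27, 3.89 and 3.53 in wild type and 7.29, 6.34 and 5.67 in IK-KO, or 3.57 ± 0.312 and 6.43 ± 0.813 (SD, n = 3 each). In both pairs the mitochondrial transcript exceeded the cytosolic one in all 6 libraries, and the ratios of the groups did not overlap. That lack of overlap follows from the single genes and adds nothing to them. Every IK-KO value of MTHFD2 and SHMT2 lay above, and every IK-KO value of MTHFD1 and SHMT1 below, the wild type values. A ratio does not show which of its members moved, and an exact permutation test of 3 against 3 libraries cannot go below p = 0.1, so none is given.

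**Figure D3:**
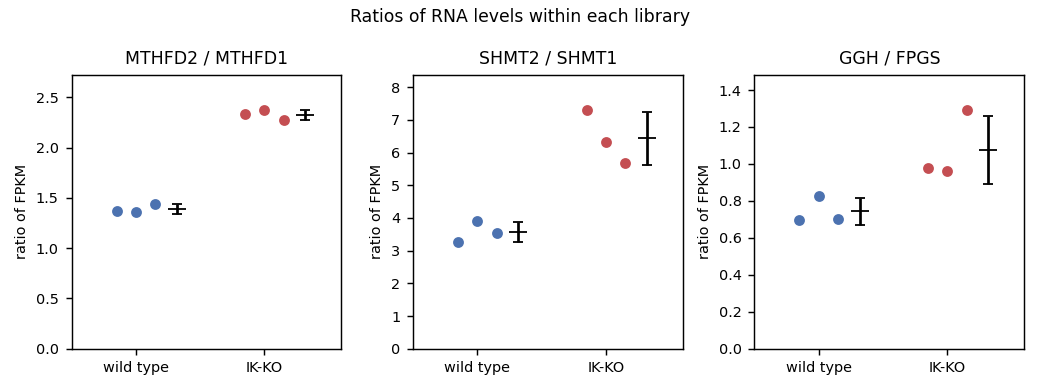
Ratios of FPKM within each library (linear axes from 0) for MTHFD2 over MTHFD1, SHMT2 over SHMT1 and GGH over FPGS in the 3 wild type (blue) and 3 IK-KO (red) libraries, with the mean and SD of each group. The ratios of the groups do not overlap in any of the 3 panels, and the GGH to FPGS ratio of 1.29 in IK-KO replicate 3 stands above the other libraries. For MTHFD2 over MTHFD1 and SHMT2 over SHMT1 the lack of overlap follows from the values of the single genes.

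ATIC carries out the last 2 steps of purine synthesis and uses formyltetrahydrofolate, and is inhibited by methotrexate polyglutamates. It was at 129.6, 139.6 and 134 FPKM in wild type, against 141, 149 and 169 FPKM in IK-KO (ENSG00000138363.15, chromosome 2, 215311956 to 215349773, plus strand). The groups did not overlap, but the gap was small and IK-KO replicate 3 stood well above the other libraries. Means were 134 ± 5.02 and 153 ± 14.6 FPKM (SD, n = 3 each), and the log2 difference of 0.18 (SE 0.07, 95% interval 0.01 to 0.36) had an unadjusted limma p of 0.0415 and an adjusted p of 0.132. GART, which uses the same cofactor earlier in the route, was at 87.8 ± 14.6 and 88.1 ± 14.1 FPKM (SD, n = 3 each, difference 0.01, SE 0.15, 95% interval -0.35 to 0.36, limma adjusted p = 0.981). None of the 5 tested genes of purine synthesis was called, beside 19.9% of all tested genes. PAICS, 1 other, was left out because its value was marked as a failed estimate in IK-KO replicate 2. At an unadjusted limma p under 0.05 ATIC alone of these 5 passed.

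IK-KO replicate 3 held the highest GGH and ATIC values and the lowest SLC19A1 value of all 6 libraries. Without it the differences were 0.13 for GGH, 0.11 for ATIC and -0.08 for SLC19A1, still with no call. The deposited confidence bounds differed among the members. Their half-width was 3.79% to 5.52% of the FPKM for TYMS, MTHFD2 and MTHFD1 and 5.82% to 7.50% for ATIC. It was 8.08% to 11.6% for SLC19A1 and GGH, 11.3% to 15.3% for FPGS and 10.8% to 22.8% for SHMT1. The differences of FPGS and SHMT1 were thus of the same order as the bounds of single values. Differences smaller than the intervals given above were not detectable with 3 libraries a group.

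Beyond the 8 members, 63 genes of folate and one-carbon metabolism were read, members included, of which 47 passed the level filter. Of these, 12 were called higher and 5 lower, against 10.1% and 9.75% of all tested genes, and 30 were not called, with a median difference of 0.02 beside 0.02 over all tested genes. The calls were unevenly spread over the lists. All 3 genes of serine synthesis rose. PSPH, the phosphatase of the last step, went from 27.2, 24.8 and 24.8 FPKM to 48.8, 45.6 and 44.4 FPKM (log2 difference 0.83, SE 0.07, limma adjusted p = 0.000333). PSAT1, the aminotransferase, went from 57.6, 54.3 and 49.6 FPKM to 85.8, 82.2 and 80.2 FPKM (0.61, SE 0.07, limma adjusted p = 0.00116), although the 50 genes around it on chromosome 9 had a median of -0.38. PHGDH, the first and committing enzyme, went from 178, 199.8 and 202 FPKM to 253, 240.3 and 221 FPKM (0.30, SE 0.07, limma adjusted p = 0.0265). The PHGDH call was lost without wild type replicate 1 or 2 or without IK-KO replicate 1 or 2, under quantile normalization (0.216, limma adjusted p = 0.104) and with no filter on low values (limma adjusted p = 0.0877).

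The counts in this paragraph stand beside 10.1% of all tested genes called higher and 9.75% called lower. The lists are short, and their departure from these shares was not tested. Of the mitochondrial list, 4 of 10 tested genes were higher and 0 lower, with a median of 0.17. Of uptake and retention, 0 of 4 were higher and 2 lower, FPGS and SLC25A32, a mitochondrial folate carrier that was at 25.8 ± 2.48 and 20.9 ± 0.482 FPKM (difference -0.29, SE 0.08, limma adjusted p = 0.0474). The SLC25A32 call was lost with 5 of the 6 libraries left out in turn, all but wild type replicate 3. Among 5 tested exporters of folates and antifolates, ABCC5 rose from 11.4, 11.6 and 11.6 FPKM to 19.7, 19.2 and 19.0 FPKM (0.70, SE 0.06, limma adjusted p = 0.000554). ABCG2 was at 2.79 ± 0.596 and 1.10 ± 0.474 FPKM (-0.87, SE 0.21, limma adjusted p = 0.0281), and ABCC1 and ABCC4 were not called. The ABCG2 call was lost without wild type replicate 1 or 2 or IK-KO replicate 1 or 3 (adjusted p up to 0.0883). Of the methionine cycle 3 of 8 tested genes rose, namely GNMT (0.92), CBS (0.40) and MAT2B (0.40), with limma adjusted p of 0.00475, 0.0208 and 0.00758. Of these CBS lost its call without wild type replicate 2 or 3 or IK-KO replicate 2 or 3 (adjusted p up to 0.0755). GNMT was low, at 0.894 ± 0.0375 FPKM in wild type and 2.58 ± 0.247 FPKM in IK-KO (SD, n = 3 each). It passed the level filter only through its IK-KO values, so its entry in these counts depended on the group where it was higher. GNMT is on chromosome 6, where the tested genes around it had a median difference of 0.27. In thymidylate synthesis and salvage 1 of 8 rose and 1 fell, as described above, which is near the share of all tested genes.

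**Figure D4:**
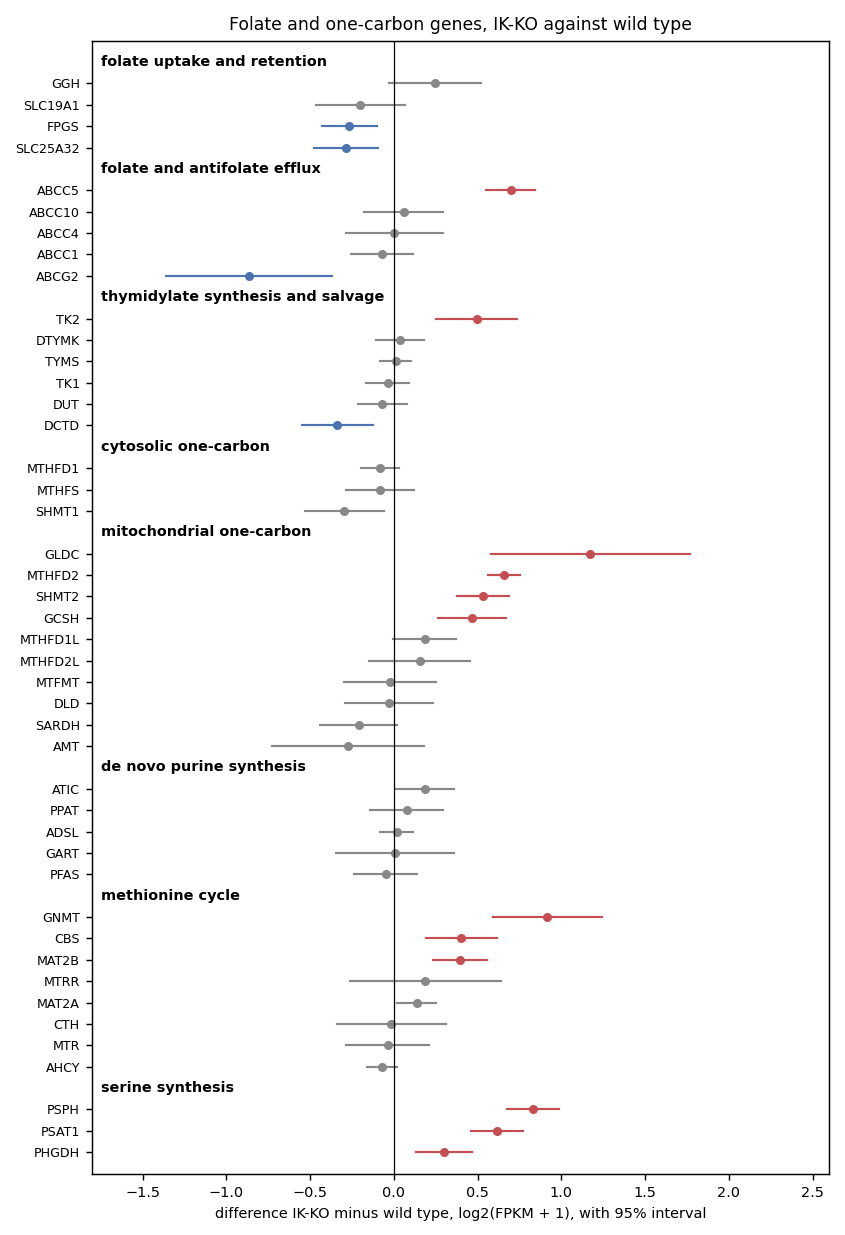
Difference IK-KO minus wild type in log2(FPKM + 1) with 95% intervals for 44 of the 47 tested genes of folate and one-carbon metabolism, grouped by list. Red genes were called higher, blue genes lower and grey genes were not called. The 3 serine synthesis genes and 4 of 10 mitochondrial genes are drawn in red, beside 10.1% of all tested genes called higher. No gene of purine synthesis was called.

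MTHFD2, SHMT2, PSAT1, PHGDH and PSPH are known targets of ATF4, a transcription factor of the amino acid response, and TYMS and TK1 are known targets of E2F in S phase. Lists of further genes of each kind were therefore read beside the members. Of 12 tested genes of the ATF4 response 9 were called higher and 0 lower, beside 10.1% and 9.75% of all tested genes. The list had a median difference of 0.76, beside 0.02 over all tested genes. The largest were ATF5, another factor of the response, which went from 32.6, 33.9 and 29.8 FPKM to 159, 151 and 152 FPKM (2.23, SE 0.06, limma adjusted p = 7.05e-06), CHAC1 (1.25), PCK2 (1.19), ASNS, asparagine synthetase (0.94), and SESN2 (0.93). The RNA of ATF4 itself was at 423 ± 14.4 and 435 ± 24.2 FPKM (0.04, SE 0.05, limma adjusted p = 0.689), and DDIT3 and TRIB3 were not called. RNA-seq does not measure ATF4 protein, and the part of ATF4 in these differences was not tested. In the windows before the gene starts, TGATGNAA, the letters of the C/EBP-ATF element, occurred at -68 of the first listed start of ASNS and at -209 in CHAC1, and did not occur at the other ASNS start or in MTHFD2, PHGDH or PSAT1.

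Of 24 tested genes of S phase and proliferation 2 were called higher and 1 lower, beside 10.1% and 9.75% of all tested genes. The list had a median of 0.02. The higher genes were CDT1 (0.33) and MCM3 (0.29), and the lower gene was MCM5 (-0.19). Their limma adjusted p were 0.0156, 0.00606 and 0.0405. The CDT1 call was lost without wild type replicate 2 or IK-KO replicate 2, and that of MCM5 without any 1 library but IK-KO replicate 2. The tested genes around MCM3 on chromosome 6 had a median difference of 0.22, close to that of MCM3 itself. E2F1 was not called (-0.04, limma adjusted p = 0.690), while E2F3 (0.65) and RB1 (0.39) were higher, with limma adjusted p of 0.00143 and 0.00798. E2F3 is also on chromosome 6, with a neighbour median of 0.22. MYC, a further regulator of these genes, differed by -0.08 (limma adjusted p = 0.317). Since the libraries are of bulk RNA, fewer cells in a given state and less RNA per cell cannot be told apart.

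**Figure D5:**
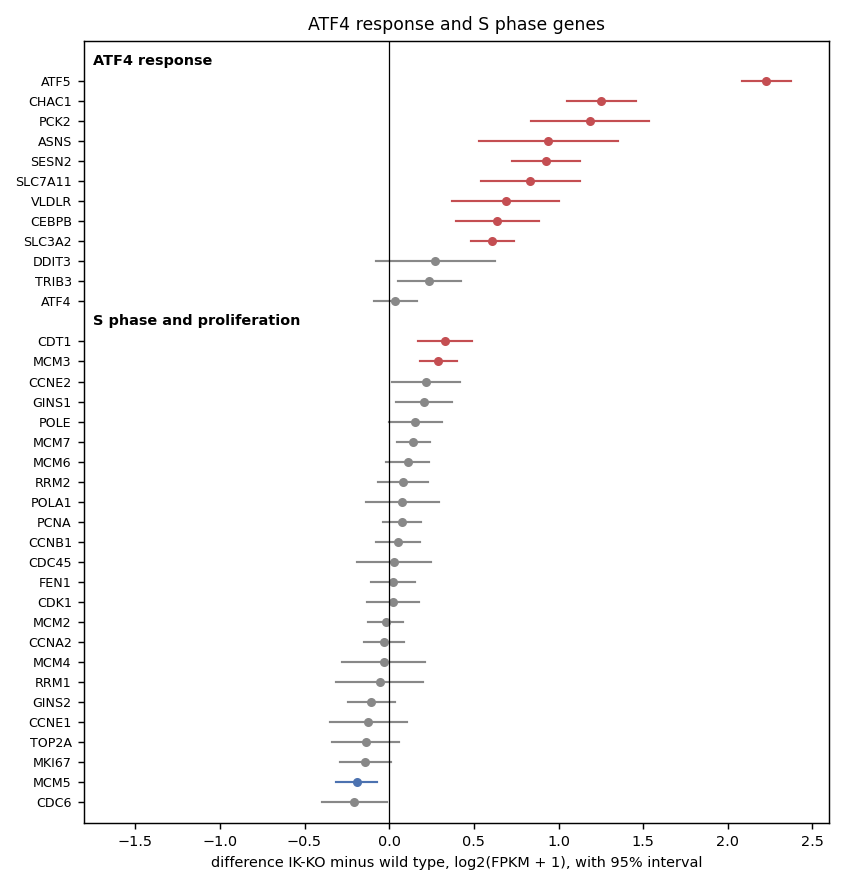
Difference IK-KO minus wild type in log2(FPKM + 1) with 95% intervals for 12 genes of the ATF4 response and 24 genes of S phase and proliferation. Red genes were called higher, blue genes lower and grey genes were not called. Of the ATF4 list 9 of 12 genes are drawn in red, beside 10.1% of all tested genes called higher, while the S phase list has a median of 0.02.

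For each member the gene outside the 8 with the most similar profile was found by Pearson's r of log2(FPKM + 1) over the 6 libraries, as a description. The libraries form 2 groups, so that r mixes the difference between groups with the spread within them. MTHFD2 was closest to CCR9, a chemokine receptor of thymocytes, at 57.9, 54.6 and 55.6 FPKM in wild type and 149.9, 152 and 148 FPKM in IK-KO, and 635 genes had an r above 0.95 with it. FPGS was closest to SLC25A25, a carrier gene on the same chromosome (r = 0.999), with 197 such genes, and MTHFD1 to ZNF207 (r = 0.998), with 107. TYMS was closest to FSTL1 (r = 0.989), with 21 such genes, the fewest of the 8. The other profiles closest to members were those of MCHR1 for GGH (r = 0.995), RAB4B for SLC19A1 (r = 0.994), TMEM71 for SHMT1 (r = 0.992) and JRK for ATIC (r = 0.996), with 35 to 51 such genes each.

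Rows that share bases with other members were low or did not pass the test. ZBTB25 shares 14352 bases with MTHFD1 and differed by 0.09 (limma adjusted p = 0.634), and SMCR8 shares 197 bases with SHMT1 and differed by -0.01 (limma adjusted p = 0.979). COL18A1 shares 20149 bases with SLC19A1 and lay between 0.218 and 1.57 FPKM, below the level filter on average. AL122035.1 and AL122035.2, at MTHFD1, and AC120042.2, at GGH, did not exceed 1.27 FPKM, and MIR6778, at SHMT1, was listed at 0.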

How the data were processed

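RNA-seq of polyadenylated RNA was deposited as 1 table per library for 3 wild type and 3 IK-KO libraries of MOLT-4. The authors deposited FPKM values per gene, scaled for transcript length and depth, with confidence bounds and an estimation status. The submitters' processing notes name STAR 2.6.1c, Cufflinks 2.2.1, HOMER 4.10 and the build hg38, and the strand setting and annotation are not given in the sources used here. Coordinates are those of the tables, counted from 1; all 49727 identifiers whose version is also in GENCODE 44 had the same position there, 4 members among them.

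Groups came from the labels. Rows of 1 identifier were summed (110 identifiers), and 29 identifiers without an estimate in some library were left out. FPKM plus a pseudocount of 1 was put on the log2 scale, which understates changes of low genes. Genes averaging at least 1 FPKM over the libraries, 12652 in all, were fitted with limma 3.58.1 in R 4.3.3 (lmFit, eBayes with trend, two-sided, Benjamini-Hochberg). This replaces the 2-condition test that the study states for its RNA-seq. Intervals are 95% limits of that fit. The code of the fit was run on simulated data with independent noise for each gene. Those data held no neighbouring genes that change together and no technical replicates, so the run checks the code and not the calls made here. The depth of each library was not used; precision rests on the deposited bounds. Start regions are from RefSeq on GRCh38.p14.

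The members and lists were chosen with earlier results of these data known, so no pattern is independent support. Named were the 8 members, IKZF1, paralogs or neighbouring enzymes of members (SHMT2, MTHFD1L, MTHFD2L, TK1, GART), rows overlapping members, up to 5 called genes with the largest difference per list, the closest profile for each member, and the nearest tested genes of a member whose neighbour median departs from 0 by over 0.2. Other genes named (among them ABCC1, ABCC4, AMT, DLD, SARDH, VLDLR, KRT8, ATF4, DDIT3, TRIB3, E2F1, MYC, PAICS, the T-cell markers ZAP70 and TRBC2, and the untested folate genes) were named after their values were seen. Some genes of the lists enter the counts but are not reported here by name. Alternatives were pseudocounts of 0.1 and 0.5, no filter and a filter at 5 FPKM, median ratio and quantile scaling, rescaling without mitochondrial transcripts, robust eBayes, the replicate number as a block, chromosomes 6 and 9 left out, the neighbour median removed and each library left out in turn.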

Additional observations from a re-analysis of the deposited data

How the results depend on the processing

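The limits are 3 libraries a group, FPKM without fragment counts, and replicates that may be technical. MTHFD2 kept its call under all 16 alternatives with a test, and its difference was 0.74 with the neighbour median removed. FPGS was called in 8 of 15. Its difference of -0.27 missed the threshold with no filter on low values (limma adjusted p = 0.0674) and with the replicate block (0.0628), and lay between -0.31 and -0.21 with 1 library left out. With the neighbour median removed it turned to 0.10, and the cause was not tested. Members called were then 1 of 8, with 0 lower, under no filter, under the replicate block and with chromosomes 6 and 9 left out, where FPGS was not among the genes tested, and 1 to 2, with 0 to 1 lower, with a library left out. TYMS, never called, went to -0.00783 under median ratio scaling, -0.0702 under quantile normalization and -0.00618 to 0.0288 with a library left out. GART, never called, went to -0.00983 under median ratio scaling, -0.0533 under quantile normalization and -0.00144 without mitochondrial transcripts, with a range of -0.13 to 0.11. SLC19A1, GGH, SHMT1, MTHFD1 and ATIC kept their direction and were not called under any alternative. Of the wider genes 10 were called with no filter, 10 under the replicate block and 9 to 14 with a library left out, against 17. All genes called numbered 2515, and 1692 to 2804 under the alternatives. The replicate block gave 1805. Same-numbered libraries correlated at 0.0669, 0.0248 and 0.00546 in their deviations from the group means, and differently numbered ones at -0.0878 to 0.0599. Over all genes the numbers thus showed no pairing of the libraries. A correlation over all genes cannot exclude a pairing that touches only some of them, and the labels do not state one. With the block, the calls of DCTD, PHGDH, CBS, SLC25A32, TK2 and MCM5 were lost as well (adjusted p between 0.0529 and 0.0961).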
